A study of Arabidopsis thaliana with 8 samples.

Results

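The 10 genes examined here encode enzymes that make or remove reactive oxygen species: the catalases CAT1 (AT1G20630), CAT2 (AT4G35090) and CAT3 (AT1G20620), the ascorbate peroxidases APX1 (AT1G07890) and APX2 (AT3G09640), the superoxide dismutases CSD1 (AT1G08830), CSD2 (AT2G28190) and FSD1 (AT4G25100), and the NADPH oxidases RBOHD (AT5G47910) and RBOHF (AT1G64060). They were picked by locus identifier, and all 10 were found among the 34354 rows of the deposited table. The study sequenced RNA of rosette leaves, the third together with the next younger one, of Arabidopsis thaliana in the Col-0 background. Leaves whose edge was beginning to turn yellow were sampled. The 4 groups were pif4-2 pif5-3 double mutants after heat, the same mutants after mock treatment, wild-type plants after heat and wild-type plants after mock treatment, with 2 libraries each. All plants grew on soil at 22 °C and are labelled as 3 weeks old. Heat was 42 °C for 5 h, and leaves were taken after 3 days of recovery, so the values describe the recovery and not the hours at 42 °C. The labels do not say separately when mock leaves were taken, nor how many plants went into a library. The deposited values, FPKM, are fragment numbers divided by transcript length and library total. Changes are log2 differences of FPKM + 1 with their standard error, a scale that understates changes of weakly expressed genes. Tests were made with limma on 16831 genes, with p-values adjusted by Benjamini-Hochberg over all of them, and a gene is called higher or lower where the adjusted p is below 0.05.

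NADPH oxidases of the RBOH family sit in the plasma membrane and pass electrons to oxygen outside the cell, which gives superoxide. RBOHD is the main source of the fast oxidative burst in immune and systemic stress signalling in Arabidopsis leaves, and RBOHF acts beside it in guard cells and in hormone signalling. Superoxide dismutases turn superoxide into hydrogen peroxide. Catalases remove hydrogen peroxide in peroxisomes, where photorespiration in green leaves makes much of it, and ascorbate peroxidases remove it at the cost of ascorbate. PIF4 and PIF5 are bHLH transcription factors that bind G-box and related E-box motifs and promote leaf senescence, a process in which CAT2 is known to decline and CAT3 to increase.

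The promoters of APX2, RBOHD and CAT3 are shown because these genes rose most among the members after heat in the wild type. The windows are the 250 bases before each annotated gene start, on the plus strand of TAIR10.1 (RefSeq), at chr3:2955906-2956155 for APX2, chr5:19396791-19397040 for RBOHD and chr1:7142722-7142971 for CAT3. Capitals mark motif matches, none of which overlap one another in these windows.
APX2: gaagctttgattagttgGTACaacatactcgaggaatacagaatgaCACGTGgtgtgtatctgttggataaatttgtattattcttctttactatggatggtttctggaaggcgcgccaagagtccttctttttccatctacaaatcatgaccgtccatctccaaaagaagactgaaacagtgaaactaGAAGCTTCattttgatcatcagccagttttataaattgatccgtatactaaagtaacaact
RBOHD: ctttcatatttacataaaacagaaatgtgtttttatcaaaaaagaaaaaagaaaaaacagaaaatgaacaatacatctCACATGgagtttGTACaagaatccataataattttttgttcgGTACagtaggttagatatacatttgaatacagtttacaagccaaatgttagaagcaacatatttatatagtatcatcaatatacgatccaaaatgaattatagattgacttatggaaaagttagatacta
CAT3: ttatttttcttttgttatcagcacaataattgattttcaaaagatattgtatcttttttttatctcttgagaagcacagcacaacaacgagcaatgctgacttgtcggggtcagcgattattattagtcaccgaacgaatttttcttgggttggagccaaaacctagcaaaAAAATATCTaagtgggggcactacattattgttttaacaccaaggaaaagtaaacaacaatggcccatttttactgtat
The motifs searched, on both strands, were the G-box CACGTG, the PIF-binding E-box CACATG, the heat shock element GAANNTTC, the copper response core GTAC and the evening element AAAATATCT, which clock proteins bind. In the APX2 window the G-box lies 204 to 199 bases before the start, the heat shock element 61 to 54 bases before it and a GTAC 233 to 230 bases before it. The RBOHD window holds a CACATG 172 to 167 bases before the start, followed by GTAC at 160 to 157 and 130 to 127 bases before it. CAT3 holds an evening element 79 to 71 bases before the start.

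Among windows of the same length before 27443 protein-coding genes, 6.49% held a G-box, 11.1% the CACATG, 9.55% the heat shock element, 34.3% a GTAC and 2.36% the evening element. Of the 10 members, 1 held the G-box (APX2), 1 the CACATG (RBOHD), 2 the heat shock element (APX1 and APX2), 6 a GTAC and 1 the evening element (CAT3). CAT1 held none, and its window reaches into the end of CAT3, since the start of CAT1 at chr1:7146636-7150180 lies 95 bases behind the end of CAT3 at chr1:7142972-7146540 on the same strand. These matches describe letters and not binding.

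**Figure D1:**
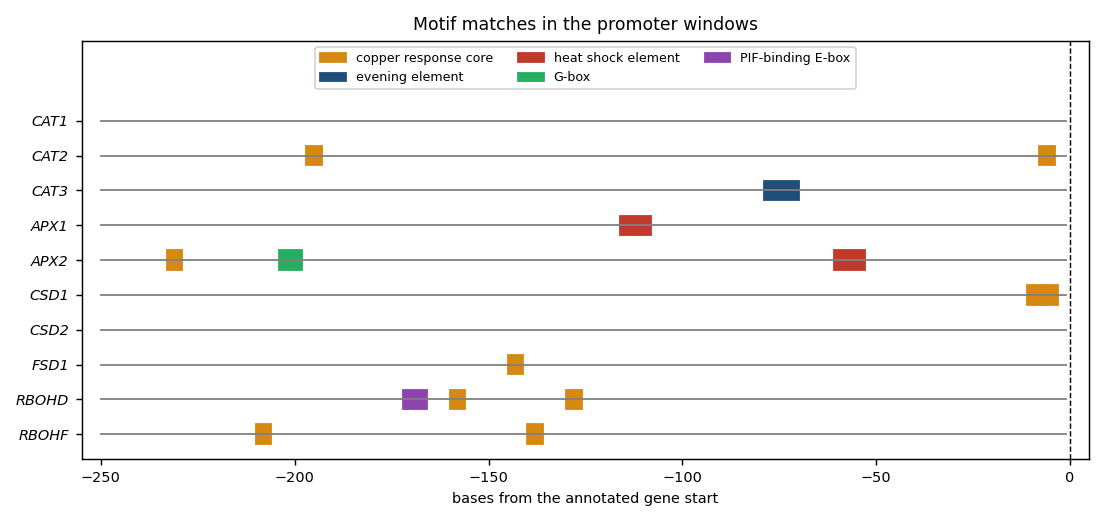
Motif matches in the 250 bases before the annotated start of each of the 10 genes, with distance from the start on the x axis and 1 line per gene. APX2 is the member with both a G-box and a heat shock element, RBOHD carries the CACATG, CAT3 the evening element, and CAT1 and CSD2 have no match.

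The messages of CSD1 and CSD2 are known targets of the microRNA miR398, which lowers them when copper is scarce, so the sites are shown here beside the microRNA and beside the best window of FSD1, a gene not known as a target. Mature sequences were read from TAIR10.1 at chr2:1041012-1041032 for miR398a-3p and chr5:4691107-4691127 for miR398b-3p, both on the plus strand. miR398c-3p has the same letters as miR398b-3p. Capitals in the microRNAs are the seed, bases 2 to 8, which all 3 share. Capitals in the sites are bases that form Watson-Crick pairs with miR398a-3p.
miR398a-3p: uGUGUUCUcaggucaccccuu
miR398b-3p: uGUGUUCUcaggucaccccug
CSD1 site: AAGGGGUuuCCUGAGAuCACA
CSD2 site: ugcGGGUGACCUGgGAAaCAuA
FSD1 window: AAGGcaaGcCCUuAGAgCACA
The CSD1 site formed 18 such pairs with 3 mismatches and lies in the 5′ UTR, split by an intron, between chr1:2827177-2827685 on the plus strand. The CSD2 site formed 16 pairs and 3 G-U pairs with 2 mismatches and 1 unpaired extra base, in the coding sequence at chr2:12015572-12015593 on the plus strand. The window of FSD1 that came closest, in the coding sequence at chr4:12885549-12885569 on the minus strand, had 15 pairs, 1 G-U pair and 5 mismatches. The rows of the miR398a, miR398b and miR398c precursor genes are listed at 0 in all 8 libraries, so the table holds no measure of the microRNA itself.

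Depth, recovered from the steps of the FPKM values, was 16852240 to 29535916 reads per library, and 16016 to 16348 genes reached 1 FPKM. In mutant libraries PIF4 (AT2G43010) was at 23.8 to 33.6 FPKM, against 97.1 to 131 FPKM in wild-type libraries, and PIF5 (AT3G59060) was at 3.98 to 5.6 FPKM, against 54.3 to 66.4 FPKM. The genotype labels thus held in all 8 libraries for these messages. The leaf label held as well: of 4 mesophyll markers, the Rubisco and light-harvesting genes RBCS1A, LHCB1.1, LHCB2.1 and LHCB3, none was below 1255 FPKM in any library, and 2 root hair markers were at 0. The sum of the mesophyll markers was 17052 to 17606 FPKM in mutant heat, 12757 to 12839 in mutant mock, 15471 to 16057 in wild-type heat and 15811 to 16605 in wild-type mock. It was thus highest in mutant heat and lowest in mutant mock, while the wild-type groups overlapped. The sum hides opposite changes from heat in the wild type, where 3 of the 4 markers were called lower and 1 higher. The sum of the 3 epidermis and trichome markers ATML1, PDF2 and GL2 was 31.9 to 33.9 FPKM in mutant heat, 44.0 to 46.9 in mutant mock, 30.7 to 32.9 in wild-type heat and 48.13 to 50.01 in wild-type mock. The 3 guard cell markers FAMA, MYB60 and KAT1 summed to 22.6 to 25.5 FPKM in mutant heat, 24.1 to 25.2 in mutant mock, 26.2 to 26.9 in wild-type heat and 23.0 to 23.9 in wild-type mock. The phloem marker SUC2 was at 155 to 170 FPKM in mutant heat, 169 to 187 in mutant mock, 149.5 to 152 in wild-type heat and 171 to 175 in wild-type mock, and 2 meristem and 2 floral markers stayed under 1 FPKM. The part of such shifts in the results was not tested. In whole leaves, fewer cells of a type and less RNA per cell cannot be told apart.

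The levels of the 10 genes, which FPKM express per transcript length, covered a wide range. CAT3 was the highest at a mean of 3092 FPKM over the 8 libraries and ranked at place 17 of all rows. It was followed by FSD1 (567 FPKM), APX1 (298), CAT2 (114), CAT1 (77.1), CSD1 (64.6), CSD2 (48.8), RBOHD (27.4), RBOHF (8.46) and APX2 (0.340). This order was the same in every library. Over all libraries together the ranges of CAT1 and CSD1 met, at 71.2 to 87.9 and 52.7 to 71.7 FPKM, and those of CSD1 and CSD2 overlapped, CSD2 being at 39.0 to 62.5 FPKM. The lengths behind these FPKM matched the mean length of the annotated transcripts of each gene, so a gene with several transcripts, such as APX1 with 8, has a level that depends on that mean.

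**Figure D2:**
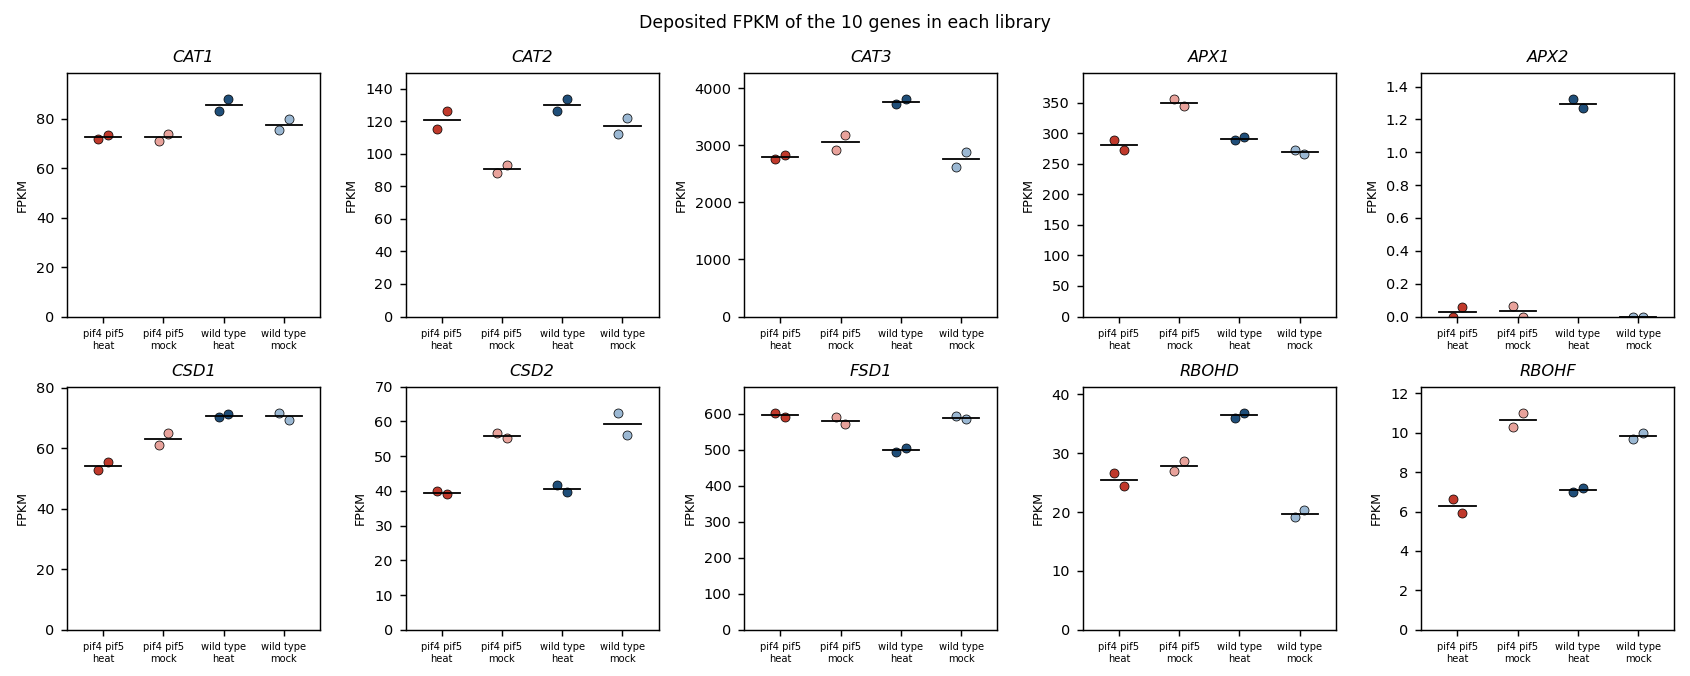
FPKM of the 10 genes in each library, with 1 panel per gene, points for libraries and bars for the mean of 2; every y axis starts at 0. APX2, RBOHD and CAT3 stand highest in both wild-type heat libraries, CSD2 and RBOHF are lower in the heat libraries of both genotypes, and APX1 is highest in mutant mock.

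CAT3, the main catalase message of these leaves, rose after heat in the wild type. It was at 2756 and 2838 FPKM in mutant heat, 2925 and 3176 FPKM in mutant mock, 3720 and 3807 FPKM in wild-type heat, and 2626 and 2887 FPKM in wild-type mock. Both wild-type heat libraries lay above all others, and the other 6 libraries lay between 2626 and 3176 FPKM. The change from heat was 0.45 ± 0.0541 in the wild type (adjusted p = 3.48e-05), while it was -0.12 ± 0.0541 in the mutant (adjusted p = 0.127). The mutant change was called lower under quantile scaling (-0.22, adjusted p = 0.0231), by limma-voom on the recovered reads (adjusted p = 0.0381) and with the replicate block (adjusted p = 0.0439). After heat the mutant was lower than the wild type (log2 change -0.43 ± 0.0541, adjusted p = 8.86e-05). In mock the mutant had 0.15 ± 0.0541 more than the wild type, which missed the threshold (adjusted p = 0.0763). That comparison passed without mutant mock replicate 1, at 0.21, and without wild-type mock replicate 2, also at 0.21, as well as under quantile scaling (0.25), by limma-voom (0.14) and with the replicate block. Quantile scaling also gave larger called values, 0.68 for heat in the wild type and -0.66 for the genotypes after heat.

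CAT2 encodes the catalase that handles photorespiratory hydrogen peroxide in green leaf cells. It had 115 and 126 FPKM in mutant heat, 88.2 and 93.2 FPKM in mutant mock, 126 and 133 FPKM in wild-type heat, and 112 and 122 FPKM in wild-type mock. The mutant mock libraries were below the other 6. In the mutant CAT2 rose after heat by 0.41 ± 0.0582 (adjusted p = 0.000892), whereas in the wild type the change of 0.15 ± 0.0582 missed the threshold (adjusted p = 0.0569). It passed, at 0.21, without wild-type mock replicate 2, and at 0.15 with a filter of 5 FPKM, with the replicate block, by limma-voom and with only the compared groups fitted. In mock it was lower in the mutant than in the wild type (log2 change -0.36 ± 0.0582, adjusted p = 0.00107), and after heat the difference was -0.11 ± 0.0582 (adjusted p = 0.201, 95% interval -0.23 to 0.02). The light-harvesting genes among the mesophyll markers were also lowest in mutant mock: LHCB2.1 was at 2061 and 2110 FPKM in mutant heat, 1619 and 1520 in mutant mock, 1891 and 1918 in wild-type heat, and 3090 and 2694 in wild-type mock. Their part in the CAT2 values was not tested. At its end CAT2 overlaps AT4G35080 on the opposite strand by 95 bases, and that gene was at 9.55 to 12.6 FPKM.

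CAT1, whose product is best known from pollen, seeds and stress responses, moved little. It was at 71.8 and 73.3 FPKM in mutant heat, 71.2 and 74.0 FPKM in mutant mock, 83.4 and 87.9 FPKM in wild-type heat, and 75.4 and 80.0 FPKM in wild-type mock. The wild-type heat libraries were the highest, and the mutant groups overlapped. After heat it was lower in the mutant than in the wild type (log2 change -0.24 ± 0.0492, adjusted p = 0.0035). The change from heat was 0.00 ± 0.0492 in the mutant (adjusted p = 0.999) and 0.14 ± 0.0492 in the wild type (adjusted p = 0.042). This last call was lost without wild-type heat replicate 1 (0.18), without wild-type heat replicate 2 (0.10) and without wild-type mock replicate 1 (0.10). It was also lost under median-of-ratios and quantile scaling (0.12 each), with no filter on low values (adjusted p = 0.0575), with no intensity trend (adjusted p = 0.136) and with only the compared groups fitted (adjusted p = 0.0632). In mock the difference was -0.10 ± 0.0492 (adjusted p = 0.186), and it was called lower under median-of-ratios scaling (-0.16, adjusted p = 0.0488).

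Summed over the 3 genes, catalase messages came to 2990 ± 66.6 FPKM in mutant heat, 3213 ± 183 in mutant mock, 3979 ± 69.7 in wild-type heat and 2951 ± 195 in wild-type mock (SD, n = 2 each). CAT3 made up 93.3% to 95% of this sum in every library. The share of CAT2 was 4.03% ± 0.175 in mutant heat and 2.82% ± 0.0508 in mutant mock, against 3.26% ± 0.0705 in wild-type heat and 3.96% ± 0.0258 in wild-type mock (SD, n = 2 each). The libraries of mutant mock thus had the smallest CAT2 share, and in the wild type the share was smaller after heat than in mock. No stretch of 50 bases is shared between any of the 3 catalase genes, the longest shared run being 32 bases between CAT1 and CAT2.

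APX1, the main cytosolic ascorbate peroxidase, stood out in mutant mock. It had 289 and 273 FPKM in mutant heat, 356 and 344 FPKM in mutant mock, 289 and 294 FPKM in wild-type heat, and 273 and 267 FPKM in wild-type mock. The mutant mock libraries were above the other 6, and the heat libraries of both genotypes lay between 273 and 294 FPKM. In mock it was higher in the mutant than in the wild type by 0.37 ± 0.0412 (adjusted p = 5.64e-05). Heat lowered it in the mutant (log2 change -0.32 ± 0.0412, adjusted p = 0.000501), and in the wild type the change was 0.11 ± 0.0412 (adjusted p = 0.0514). The wild-type change was called higher, at 0.11, under quantile scaling, with a filter of 5 FPKM, with the replicate block and by limma-voom. After heat the difference between mutant and wild type was -0.05 ± 0.0412 (adjusted p = 0.369, 95% interval -0.14 to 0.04).

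APX2, a cytosolic ascorbate peroxidase known for its induction by heat and strong light through heat shock factors, was found almost only in wild-type heat. It had 0 and 0.0578 FPKM in mutant heat, 0.0659 and 0 FPKM in mutant mock, 1.32 and 1.27 FPKM in wild-type heat, and 0 FPKM in both wild-type mock libraries. These values stand for few reads: 1 in mutant heat, 2 in mutant mock, 52 in wild-type heat (29 and 23) and 0 in wild-type mock, each over 2 libraries. Per read sequenced, wild-type heat was at least 22.3-fold higher than wild-type mock. This bound sets wild-type mock at 3 reads over the group, the limit that a count of 0 allows. It takes the 52 reads of wild-type heat as exact, without their counting error. Mutant heat was at 0.0194 times wild-type heat (exact 95% interval 0.000481 to 0.113), an interval that covers counting error only. On the log2 scale the change from heat in the wild type was 1.20 ± 0.14 (adjusted p = 2.73e-05), and after heat the mutant was lower than the wild type (log2 change -1.16 ± 0.14, adjusted p = 6.05e-05). In the mutant the change from heat was -0.01 ± 0.14 (adjusted p = 0.982), and in mock the difference between genotypes was 0.05 ± 0.14 (adjusted p = 0.851), both between groups at or below the 3-read limit. The gene passed the filter of 1 FPKM in 2 libraries through wild-type heat alone, so it had to differ between the groups, and its calls are a description only. Their size depends on the pseudocount: with 0.1 FPKM the change from heat in the wild type was 3.80. APX1 and APX2 share no run longer than 12 bases.

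CSD2, the copper/zinc superoxide dismutase of chloroplasts, fell after heat in both genotypes. It was at 39.9 and 39.0 FPKM in mutant heat, 56.6 and 55.2 FPKM in mutant mock, 41.6 and 39.6 FPKM in wild-type heat, and 62.5 and 55.9 FPKM in wild-type mock. Every heat library was below every mock library. Heat lowered it in the mutant (log2 change -0.49 ± 0.0586, adjusted p = 0.000276) and in the wild type (log2 change -0.53 ± 0.0586, adjusted p = 1.65e-05). Between genotypes the difference was -0.04 ± 0.0586 after heat (adjusted p = 0.648) and -0.08 ± 0.0586 in mock (adjusted p = 0.369).

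CSD1, the cytosolic copper/zinc enzyme, followed another pattern although it carries a miR398 site as well. It had 52.7 and 55.4 FPKM in mutant heat, 60.9 and 65.1 FPKM in mutant mock, 70.2 and 71.3 FPKM in wild-type heat, and 71.7 and 69.2 FPKM in wild-type mock. All 4 mutant libraries lay below the 4 wild-type ones, and mutant heat was the lowest group. After heat the mutant was lower than the wild type (log2 change -0.38 ± 0.0506, adjusted p = 0.000127). The difference in mock, -0.16 ± 0.0506 (adjusted p = 0.0437), lost its call without mutant mock replicate 1 (-0.11), wild-type mock replicate 1 (-0.13) or wild-type mock replicate 2 (-0.19), and also with no filter on low values (adjusted p = 0.0711), with no intensity trend (adjusted p = 0.136) or with only the compared groups fitted (adjusted p = 0.0863). In the mutant CSD1 fell after heat (log2 change -0.22 ± 0.0506, adjusted p = 0.0118), a call lost without mutant heat replicate 1 (-0.18) or mutant mock replicate 2 (-0.17), under median-of-ratios scaling (-0.14, adjusted p = 0.0896) and with no intensity trend (adjusted p = 0.0624). In the wild type the change was 0.01 ± 0.0506 (adjusted p = 0.94). CSD1 overlaps emb2411 (AT1G08840) on the opposite strand by 211 bases, and that gene was at 0.574 to 1.32 FPKM.

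FSD1, an iron superoxide dismutase that replaces the copper/zinc enzymes when copper is scarce, was the most abundant of the 3 dismutase messages. It was at 603 and 591 FPKM in mutant heat, 590 and 571 FPKM in mutant mock, 495 and 506 FPKM in wild-type heat, and 594 and 585 FPKM in wild-type mock. The wild-type heat libraries were the lowest, and the other 6 lay between 571 and 603 FPKM. Heat lowered it in the wild type (log2 change -0.24 ± 0.0374, adjusted p = 0.000322), and in the mutant the change was 0.04 ± 0.0374 (adjusted p = 0.468). After heat the mutant was above the wild type, by 0.25 ± 0.0374 (adjusted p = 0.000286), and in mock the difference was -0.02 ± 0.0374 (adjusted p = 0.716). Of the summed FPKM of CSD1, CSD2 and FSD1, FSD1 held 86.5% ± 0.33 in mutant heat, 83.0% ± 0.567 in mutant mock, 81.8% ± 0.328 in wild-type heat and 82.0% ± 0.578 in wild-type mock (SD, n = 2 each). In wild-type heat the sum was 612 ± 7.21 FPKM, against 719 ± 12.8 FPKM in wild-type mock, and CSD1 had its largest share there, at 11.6% ± 0.011 against 9.79% ± 0.0769 (SD, n = 2 each).

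RBOHD rose after heat in the wild type and was already higher in the mutant in mock. It had 26.6 and 24.4 FPKM in mutant heat, 27.02 and 28.68 FPKM in mutant mock, 36.0 and 36.9 FPKM in wild-type heat, and 19.2 and 20.3 FPKM in wild-type mock. The wild-type groups were the highest and the lowest of the 4, and the mutant groups lay between them. The change from heat was 0.85 ± 0.0635 in the wild type (adjusted p = 5.5e-07) and -0.12 ± 0.0635 in the mutant (adjusted p = 0.198). The mutant was higher than the wild type by 0.48 ± 0.0635 in mock (adjusted p = 0.000266) and lower after heat (log2 change -0.50 ± 0.0635, adjusted p = 9.42e-05), so the order of the genotypes turned round with heat.

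RBOHF fell after heat in both genotypes. It was at 6.61 and 5.91 FPKM in mutant heat, 10.27 and 11.02 FPKM in mutant mock, 7.0 and 7.19 FPKM in wild-type heat, and 9.68 and 9.98 FPKM in wild-type mock. Every heat library was below every mock library. The change was -0.68 ± 0.0872 in the mutant (adjusted p = 0.00046) and -0.42 ± 0.0872 in the wild type (adjusted p = 0.00228). Between genotypes the difference was -0.16 ± 0.0872 after heat (adjusted p = 0.203) and 0.10 ± 0.0872 in mock (adjusted p = 0.432). Of 8 other RBOH genes, none reached 1 FPKM in any library and 4 were at 0 in all, so RBOHD and RBOHF were the family's messages in these leaves. RBOHD thus stood above RBOHF in every library, and the pair moved in opposite directions after heat in the wild type.

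**Figure D3:**
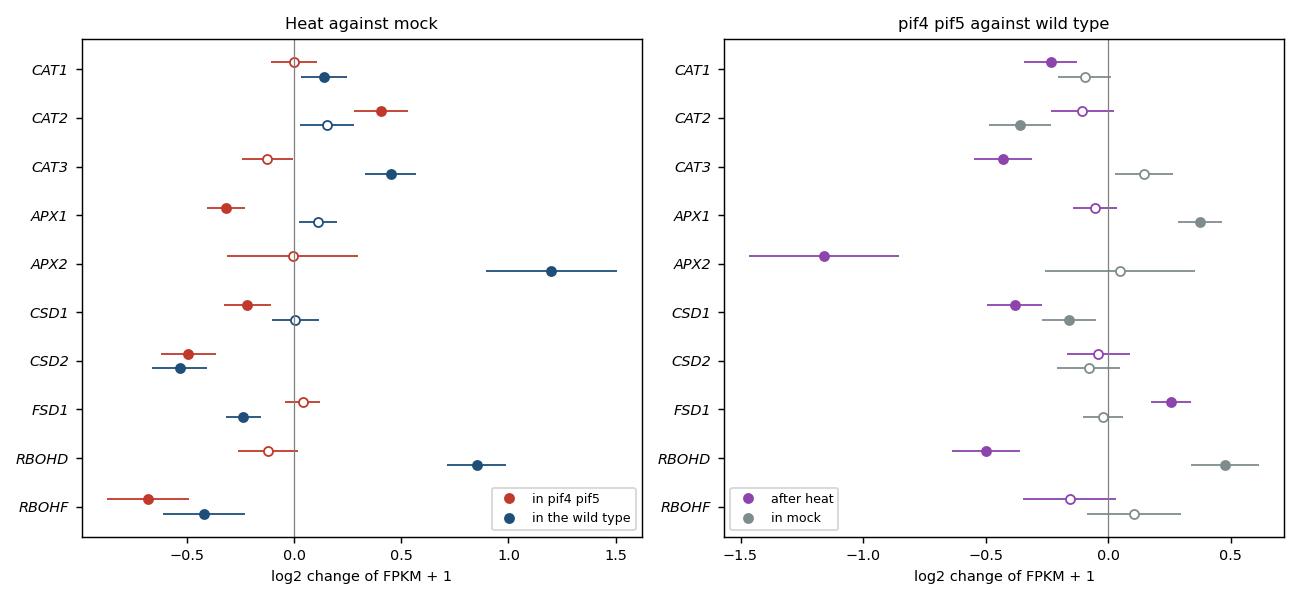
Log2 change of FPKM + 1 of the 10 genes, with 95% intervals from limma, for heat against mock in the mutant and in the wild type (left) and for mutant against wild type after heat and in mock (right). Filled points are called at an adjusted p below 0.05, and changes of RBOHD, CAT3 and APX2 from heat lie above 0 in the wild type and near or below 0 in the mutant.

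Read as counts, heat in the mutant raised 1 member (CAT2) and lowered 4 (APX1, CSD1, CSD2, RBOHF), where 6.28% of all genes were called higher and 13.9% lower. Heat in the wild type raised 4 (CAT1, CAT3, APX2, RBOHD) and lowered 3 (CSD2, FSD1, RBOHF), where 21.5% of all genes were called higher and 16.9% lower. After heat the mutant was higher than the wild type in 1 (FSD1) and lower in 5 (CAT1, CAT3, APX2, CSD1, RBOHD), with 11% of all genes higher and 17.6% lower. In mock it was higher in 2 (APX1, RBOHD) and lower in 2 (CAT2, CSD1), with 13% of all genes higher and 7.69% lower. With so many genes called in each comparison, counts over 10 members say little by themselves, and they include APX2, whose passing of the filter fixed its calls. The median change of the members was -0.12 for heat in the mutant, 0.12 for heat in the wild type, -0.20 for genotype after heat and 0.01 for genotype in mock, beside -0.06, 0.02, -0.03 and 0.06 over all genes.

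These background shares depend on the scaling. The share of higher among all calls was 31.1% for heat in the mutant, and 59.7% or 48.0% after median-of-ratios or quantile scaling. It was 56.1% for heat in the wild type (52.3% and 42.9%), 38.5% for genotype after heat (48.8% and 54.8%), 62.8% for genotype in mock (43.2% and 47.1%) and 32.2% for the interaction (48.8% and 52.4%). No called change of a member turned its sign under either scaling.

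The interaction, the change from heat in the mutant minus that in the wild type, was positive in 2 members and negative in 5, where 10.3% of all genes were called higher and 21.6% lower. Its median was -0.24 in the members and -0.10 over all genes, and the value over all genes moved by more than 0.1, to 0.02, under quantile scaling. RBOHD had the most negative value after APX2, -0.97 ± 0.0898 (adjusted p = 9.08e-06), and APX2 was at -1.21 ± 0.198 (adjusted p = 0.000753). CAT3 was at -0.57 ± 0.0766 (adjusted p = 0.000167) and APX1 at -0.43 ± 0.0583 (adjusted p = 0.0002). FSD1 was at 0.28 ± 0.0529 (adjusted p = 0.00211). For RBOHD, CAT3, APX1 and FSD1 the call held whichever library was left out, and the value of CAT3 was -0.90 under quantile scaling. APX2 is given as a description, since it passed the filter through wild-type heat alone. CAT2, at 0.25 ± 0.0823 (adjusted p = 0.0343), lost the call without mutant heat replicate 2 (0.19), mutant mock replicate 1 (0.21), wild-type heat replicate 1 (0.21) or wild-type mock replicate 2 (0.19), and also under quantile scaling (0.25, adjusted p = 0.0598), with no filter on low values (adjusted p = 0.088) or with no intensity trend (adjusted p = 0.125). CSD1, at -0.22 ± 0.0716 (adjusted p = 0.0328), lost it without mutant heat replicate 1 (-0.19), mutant mock replicate 2 (-0.18), wild-type heat replicate 1 (-0.23), wild-type heat replicate 2 (-0.21) or wild-type mock replicate 2 (-0.20). It was lost as well under median-of-ratios (-0.13) and quantile scaling (-0.17), with no filter on low values, with no intensity trend and by limma-voom. CAT1 (-0.14, 95% interval -0.29 to 0.01), CSD2 (0.04, interval -0.14 to 0.22) and RBOHF (-0.26, interval -0.53 to 0.01) missed the threshold. Since the interaction and the genotype comparisons use the same libraries as the heat comparisons, they are not independent of them.

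APX2 was the one member whose group means spanned at least 1 log2 unit, at 1.20. The 2 genes outside the members with the most similar profile over the 8 libraries were CCD8 (AT4G32810), which encodes a carotenoid cleavage enzyme of strigolactone synthesis, and AT2G36950. Their root mean square differences from APX2, after centring log2 values, were 0.0371 and 0.0525. CCD8 was at 1.25 and 1.26 FPKM in wild-type heat and at 0 in the other 6 libraries. As with APX2, it passed the filter through wild-type heat alone. The likeness of these 2 profiles thus followed from the filter and is a description only. AT2G36950 was picked for its likeness to APX2, so its order of groups is a description as well. AT2G36950 had 13.9 and 13.4 FPKM in mutant heat, 14.3 and 12.5 FPKM in mutant mock, 29.9 and 30.3 FPKM in wild-type heat, and 12.3 and 13.1 FPKM in wild-type mock. HSFA2 (AT2G26150), a heat shock factor known to activate APX2, had 0.948 and 1.16 FPKM in mutant heat, 0.841 and 0.946 FPKM in mutant mock, 4.21 and 4.03 FPKM in wild-type heat, and 1.04 and 0.758 FPKM in wild-type mock. HSFA2 was highest in the wild-type heat libraries, with an interaction of -1.32 ± 0.186 (adjusted p = 0.000253). Since the filter fixed where APX2 is high, its likeness to HSFA2 is a description only. The part of HSFA2 in the APX2 values was not tested.

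**Figure D4:**
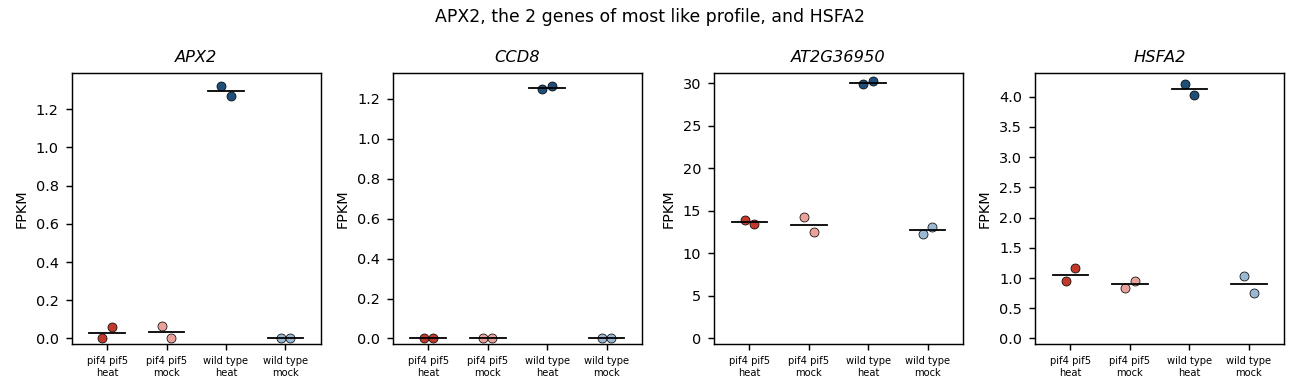
FPKM in each library of APX2, of CCD8 and AT2G36950, the 2 genes of most like profile, and of HSFA2, with points for libraries and bars for the mean of 2. In all 4 panels the wild-type heat libraries stand above the other 6. For APX2 and CCD8 this followed from the filter, and AT2G36950 was picked for its likeness to APX2.

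The counts of related groups that follow stand beside 6.28% of all genes called higher and 13.9% lower after heat in the mutant, and 21.5% higher and 16.9% lower in the wild type, so the genotypes already differ over all genes. Of 10 regulators and partners of the members, 4 rose after heat in the wild type and none fell, while in the mutant 3 rose and 1 fell (3 and 0 under either scaling). BIK1 (AT2G39660), a kinase that phosphorylates RBOHD, had 15.5 and 18.6 FPKM in mutant heat, 13.2 and 14.6 FPKM in mutant mock, 21.8 and 21.5 FPKM in wild-type heat, and 11.1 and 10.3 FPKM in wild-type mock. As with RBOHD, wild-type heat was the highest group and wild-type mock the lowest, with an interaction of -0.68 ± 0.125 (adjusted p = 0.0017). WRKY53 (AT4G23810), a senescence factor reported to regulate catalase genes, rose in both genotypes, by 0.47 ± 0.0997 in the mutant (adjusted p = 0.00755) and 0.66 ± 0.0997 in the wild type (adjusted p = 0.000223). The products of clock genes also time CAT2 and CAT3 expression. Of 9 clock genes, 1 rose and 3 fell after heat in the mutant (1 and 2 under median-of-ratios scaling). In the wild type 1 rose and 2 fell (0 and 2 under quantile scaling). GI (AT1G22770) fell in the mutant (log2 change -0.45 ± 0.0825, adjusted p = 0.00333), and PRR9 (AT2G46790) fell in the wild type (log2 change -0.66 ± 0.117, adjusted p = 0.000734). The part of such shifts in the catalase values was not tested.

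None of the 6 other ascorbate peroxidases was called higher after heat in the wild type. After heat 2 rose and 1 fell in the mutant (2 and 0 under median-of-ratios scaling), and 3 fell in the wild type. The thylakoid enzyme TAPX (AT1G77490) changed by 0.03 ± 0.044 in the mutant (adjusted p = 0.676) and fell in the wild type (log2 change -0.41 ± 0.044, adjusted p = 1.48e-05). TL29 (AT4G09010), a thylakoid lumen protein related to ascorbate peroxidases, rose by 0.27 ± 0.0415 in the mutant (adjusted p = 0.0014) and fell in the wild type (log2 change -0.20 ± 0.0415, adjusted p = 0.00224). The 3 light-harvesting markers had the same directions, of which LHCB3 in the wild type turned to 0.04, not called, under quantile scaling. RBCS1A, the remaining mesophyll marker, was called higher after heat in both genotypes, at 0.31 in the wild type. Of 5 other superoxide dismutases 4 passed the filter, and only FSD2 (AT5G51100), an iron enzyme of chloroplasts, was called, lower after heat in the wild type (log2 change -0.30 ± 0.0937, adjusted p = 0.0243).

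In the ascorbate-glutathione cycle, which regenerates the ascorbate that APX enzymes use, 1 of 16 genes rose and 3 fell after heat in the mutant (4 and 1 under median-of-ratios scaling), and 11 rose and 2 fell in the wild type. Over all genes 6.28% were called higher and 13.9% lower in the mutant, and 21.5% higher and 16.9% lower in the wild type. The median change of the 16 genes was 0.01 in the mutant and 0.20 in the wild type, beside -0.06 and 0.02 over all genes. DHAR1 (AT1G19570), a dehydroascorbate reductase, was at 257 and 268 FPKM in mutant heat, 255 and 248 FPKM in mutant mock, 363 and 357 FPKM in wild-type heat, and 257 and 249 FPKM in wild-type mock. GR1 (AT3G24170), a glutathione reductase, was at 23.9 and 23.0 FPKM in mutant heat, 23.3 and 23.0 FPKM in mutant mock, 39.3 and 37.8 FPKM in wild-type heat, and 25.3 and 25.0 FPKM in wild-type mock. Both shared with APX2 and CAT3 a level that was highest in wild-type heat, with interactions of -0.45 ± 0.0567 for DHAR1 (adjusted p = 0.000113) and -0.58 ± 0.0784 for GR1 (adjusted p = 0.000187). Not every gene of the cycle had this order. MDAR3 (AT3G09940) was at 19.0 and 19.9 FPKM in mutant heat, 14.9 and 15.3 FPKM in mutant mock, 10.6 and 9.37 FPKM in wild-type heat, and 2.21 and 2.11 FPKM in wild-type mock.

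Of genes that make hydrogen peroxide in peroxisomes, the compartment of the catalases, 2 of 9 rose and 1 fell after heat in the mutant (3 and 0 under median-of-ratios scaling, 2 and 0 under quantile scaling), and 7 rose and 1 fell in the wild type (5 and 1 under either scaling), beside the same shares over all genes. The 7 that rose in the wild type included GOX3 (AT4G18360), at 2.45 and 2.47 FPKM in wild-type heat and below 1 FPKM elsewhere. GOX3 passed the filter through wild-type heat alone, so its call is a description only. The median change of the 9 genes was -0.09 in the mutant and 0.28 in the wild type. ACX2 (AT5G65110), an acyl-CoA oxidase of fatty acid breakdown, was at 27.5 and 26.7 FPKM in mutant heat, 28.2 and 29.6 FPKM in mutant mock, 41.4 and 41.3 FPKM in wild-type heat, and 24.8 and 26.4 FPKM in wild-type mock. GOX1 (AT3G14420), a glycolate oxidase of photorespiration, rose by 0.27 ± 0.0391 in the mutant (adjusted p = 0.000958) and by 0.15 ± 0.0391 in the wild type (adjusted p = 0.0087). Its order of groups, with mutant mock the lowest, was that of CAT2.

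Copper genes were examined because copper supply is known to raise CSD1 and CSD2 and to lower FSD1. Of 8 that passed the filter, 2 rose and 1 fell after heat in the mutant (3 and 0 under median-of-ratios scaling, 1 and 0 under quantile scaling), and 2 rose and 3 fell in the wild type (1 and 4, or 2 and 5). COPT2 (AT3G46900), a copper transporter that is raised when copper is scarce, rose by 0.40 ± 0.108 in the mutant (adjusted p = 0.0241) and by 0.69 ± 0.108 in the wild type (adjusted p = 0.000282). CCS (AT1G12520), the copper chaperone of CSD1 and CSD2 and itself a miR398 target, fell in the mutant (log2 change -0.23 ± 0.0551, adjusted p = 0.014), and the change in the wild type was -0.12 ± 0.0551 (adjusted p = 0.0995). CSD2 fell and COPT2 rose in both genotypes. FSD1 was called lower after heat in the wild type (-0.24) and was not called in the mutant (0.04). CSD1 was not called in the wild type (0.01) and was called lower in the mutant (-0.22), a call that did not hold under every setting. The part of copper supply in these values was not tested.

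Of 7 reactive oxygen response genes that passed the filter, 3 rose and 1 fell after heat in the mutant, and 5 rose and 2 fell in the wild type. The 5 included OXI1 (AT3G25250), at 2.12 and 1.86 FPKM in wild-type heat and below 1 FPKM elsewhere. OXI1 passed the filter through wild-type heat alone, so its call is a description only. AOX1D (AT1G32350), an alternative oxidase of mitochondria, had 1.25 and 1.04 FPKM in mutant heat, 1.87 and 1.98 FPKM in mutant mock, 11.4 and 10.7 FPKM in wild-type heat, and 0.446 and 0.419 FPKM in wild-type mock. Its interaction was -3.52 ± 0.165 (adjusted p = 3.1e-08), the same sign as in RBOHD. The zinc finger gene ZAT10 (AT1G27730, STZ in the annotation) went the other way, with 92.4 and 82.8 FPKM in mutant heat, 47.8 FPKM in both mutant mock libraries, 20.3 and 25.0 FPKM in wild-type heat, and 29.6 and 36.8 FPKM in wild-type mock. Of the glutathione peroxidases and peroxiredoxins, 2 of 7 and 2 of 6 tested rose after heat in the mutant (3 and 4 under median-of-ratios scaling) and none fell, while in the wild type 4 and 2 rose and 1 and 4 fell.

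**Figure D5:**
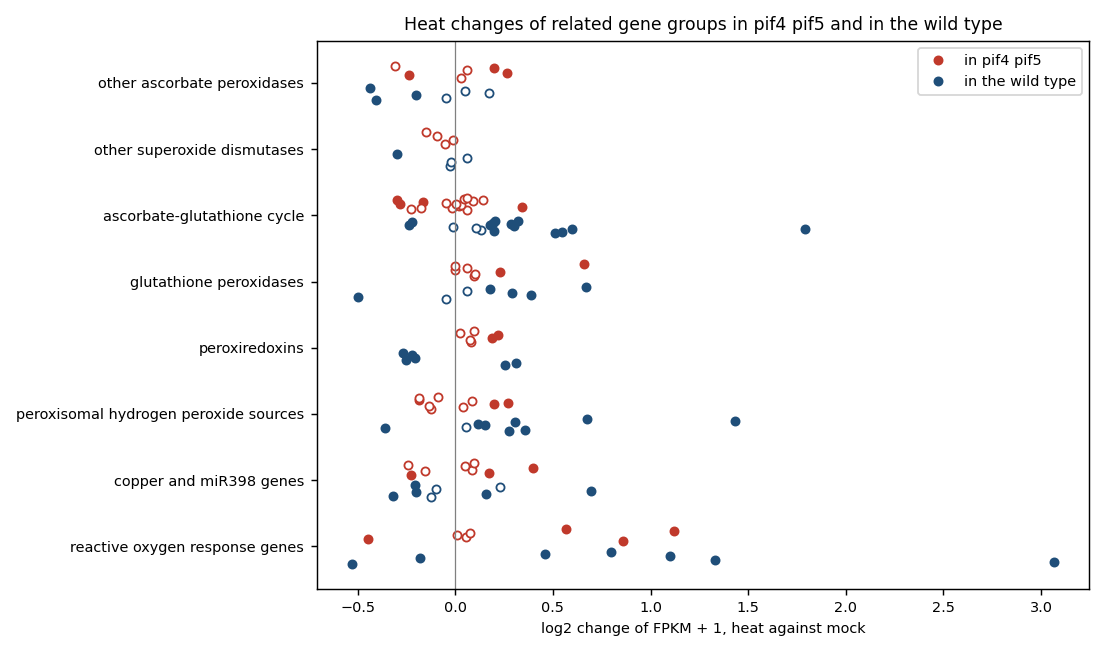
Log2 change of FPKM + 1 after heat for genes of 8 related groups, 1 point per gene that passed the filter, in the mutant and in the wild type; filled points are called at an adjusted p below 0.05. Of 16 genes of the ascorbate-glutathione cycle, 1 is called higher in the mutant (4 after median-of-ratios scaling), where 6.28% of all genes are, and 11 in the wild type, where 21.5% of all genes are.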

How the data were processed

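Trizol-extracted RNA was made into directional libraries, per the labels' protocols. FPKM of 34354 rows in 8 libraries were deposited by the authors. TopHat, TopHat2, edgeR and the TAIR10 build are named in the submitters' processing notes. How reads were counted, and whether by strand, was not given in the sources used here. Steps in the FPKM gave whole reads, to 0.02 of a read, for 99.996% of the 23543 rows with a value above 0. Within groups the libraries differed beyond counting noise: the chi-square averaged 2.11 per gene in mutant heat, 4.79 in mutant mock, 2.15 in wild-type heat and 5.16 in wild-type mock. The series' design text calls them biological replicates.

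Groups came from sample titles. Genes reaching 1 FPKM in 2 or more libraries were kept, and log2(FPKM + 1) was fitted with limma 3.58.1 in R 4.3.3 (4 group means, intensity trend, 4 residual degrees of freedom), two-sided. The fit shares the spread of each gene between the 4 groups. As mock libraries differed more beyond counting noise than heat libraries, standard errors and p-values between the mock groups may be too small. The test was checked on simulated data. Alternatives were another pseudocount, filters and scalings, a replicate block, no trend, limma-voom on the recovered reads, only the compared groups and each library left out. Members, gene lists and tests were chosen with earlier results of these data known. All members were named. Of each list up to 4 called genes with the smallest p in a comparison could be named. For members spanning at least 1 log2 unit the 2 closest profiles were named. Lists name loci, and 32548 rows matched TAIR10.1 (RefSeq), from which positions, promoters and microRNAs were read. The labels name TAIR10. Motifs were searched as exact letters. miR398 sites were the transcript windows with the fewest mismatches, with G-U pairs counted at 0.5 and at most 1 unpaired extra base. The exact interval is a conditional binomial one at 95%. Figures were drawn with matplotlib 3.10.9.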

Additional observations from a re-analysis of the deposited data

Results flagged for a closer look

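The change from heat was called different between the mutant and the wild type in 7 of the 10 genes by limma's test of the interaction (mutant minus wild type, log2 of FPKM + 1): RBOHD at -0.97, APX2 at -1.21, CAT3 at -0.57, APX1 at -0.43, FSD1 at 0.28, CAT2 at 0.25 and CSD1 at -0.22. Over all genes 10.3% were called higher and 21.6% lower in this test. APX2 passed the filter through wild-type heat alone, so its value is a description, and CAT2 and CSD1 lost their calls when single libraries were left out. All pairs of groups behind these values are described with the genes above.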

How the results depend on the processing

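The number of called members stayed within 1.5 times under each alternative run: 4 to 6 for heat in the mutant (5 as reported), 6 to 9 for heat in the wild type (7), 5 to 6 for genotype after heat (6), 3 to 5 for genotype in mock (4) and 5 to 7 for the interaction (7). No called change of a member turned its sign. Of 435 values of single members under settings that kept all libraries or only the compared groups, 398 kept direction and call, 18 lost the call, 15 gained one and 4 uncalled values changed sign; of 240 with a library left out, the numbers were 211, 17, 3 and 9. Lost calls were those of CSD1 in mock, after heat in the mutant and in the interaction, CAT1 after heat in the wild type and CAT2 in the interaction. With a filter of 5 FPKM in 2 libraries APX2 was not tested. The replicate block gave 6, 9, 6, 5 and 7 calls in the same order of comparisons. Same-numbered libraries deviated together with correlations of -0.03 to 0.19, so the numbers were not taken to pair the samples. With 2 libraries a group, leaving one out assumes that the remaining one varies like the others. At this depth 1 read of APX2 is worth 0.0330 to 0.0578 FPKM, which limits its 3 low groups.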
